A study of Mus musculus with 17 samples.

Results

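The mitochondrially encoded genes are the 37 genes carried on the mitochondrial chromosome. They were taken as every gene of the GENCODE M21 annotation (GRCm38) whose symbol starts with mt-, and all 37 were present among the 46073 genes of the deposited files. They comprise 13 genes for mRNAs, 2 for ribosomal RNAs (rRNAs) and 22 for transfer RNAs (tRNAs). Of these, 15 genes reached 0.5 FPKM (fragments counted per length of transcript and per depth of the library) in at least 3 of 15 libraries, namely all 13 mRNA genes and both rRNA genes, and none of the 22 tRNA genes did.

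PolyA-selected RNA was measured in tissue labelled frontal cortex from male FVB/N mice. In all, 3 groups were compared, each library being 1 GEO sample. The dTgDox group held 3 libraries from mice of genotype dTg-211 given doxycycline for 4 days. The dTg group held 7 libraries from mice of the same genotype without doxycycline, and the Ct group held 6 libraries from mice of genotype CamK, which carry the driver alone. In this Tet-off design the CamK driver makes a transactivator in forebrain excitatory neurons, the transactivator switches on the microRNA miR-211 in double transgenic mice, and doxycycline blocks it, so all 3 groups carried the driver. No Ct libraries with doxycycline were analysed here, so an effect of doxycycline and an effect of switching miR-211 off cannot be told apart. Nothing in the labels says whether the libraries of a group came from separate mice, so p-values measure the spread between these libraries.

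The dTg library with replicate number 1 was kept apart. Its file was identical, gene for gene, to the file labelled NTg (the miR-211 transgene with no driver), and its summed level of 5 cerebellum markers was 2006 FPKM, against at most 35.9 FPKM in every other library, while its 5 markers of excitatory cortical neurons summed to 185 FPKM, against at least 532 FPKM elsewhere. The dTg values below are therefore those of 6 libraries, replicates 2 to 7, and the 15 libraries are these with the 3 dTgDox and 6 Ct libraries. Markers of region differed in dTgDox as well. Of the 5 markers of excitatory cortical neurons, 2 fell and 1 rose against dTg at a limma adjusted p under 0.05, and 5 of 6 hippocampus markers rose. The summed hippocampus markers were 134 to 177 FPKM in dTgDox, against 29.1 to 44.9 FPKM in dTg and 28.6 to 47.3 FPKM in Ct, with no marker at 0 in all libraries. In tissue RNA of this kind, fewer cells of a type and less RNA per cell cannot be told apart. The deposited values hold no read counts, and the smallest steps in the values of single-exon genes placed the depth of the libraries within 0.727 to 1 of the deepest, Ct replicate 4. The absolute depth is unknown.

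Mitochondrial DNA is transcribed from both strands as long precursors that are cut at the tRNAs lying between the other genes, so that the tRNAs act as punctuation. The rRNAs lie nearest the start of heavy-strand transcription, and an additional transcript that covers mainly the rRNAs ends within the leucine tRNA gene mt-Tl1 (known from human cells). The 13 proteins are subunits of complexes I, III and IV of the respiratory chain and of ATP synthase, the machines that make most of the ATP used by neurons, and they are translated on mitochondrial ribosomes built around the 12S rRNA mt-Rnr1 and the 16S rRNA mt-Rnr2. Most mitochondrial mRNAs carry a polyA tail, the rRNAs carry short A tails, and the finished tRNAs carry none. Doxycycline is a tetracycline, a class of antibiotics that slows translation on bacterial and mitochondrial ribosomes.

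The order of these genes at the start of the chromosome is mt-Rnr1 (chrM:70-1024, 955 bases), the valine tRNA mt-Tv (chrM:1025-1093), mt-Rnr2 (chrM:1094-2675, 1582 bases), the leucine tRNA mt-Tl1 (chrM:2676-2750) and mt-Nd1 (chrM:2751-3707, 957 bases), all on the plus strand with no base between them. The last 60 bases of each rRNA are shown with the whole of the tRNA that follows it, because the rRNAs are the members that differed between groups. Sequences here and below are from the GENCODE M21 transcripts on GRCm38, 5′ to 3′.
mt-Rnr1, last bases: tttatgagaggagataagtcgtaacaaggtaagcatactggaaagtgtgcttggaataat
mt-Tv: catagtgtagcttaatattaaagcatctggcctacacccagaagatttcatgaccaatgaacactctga
mt-Rnr2, last bases: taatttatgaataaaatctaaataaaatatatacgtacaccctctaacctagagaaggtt
mt-Tl1: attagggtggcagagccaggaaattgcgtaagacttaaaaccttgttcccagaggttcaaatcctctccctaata

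Among the mRNAs, 10 end in a complete stop codon and 3 (mt-Co3, mt-Nd4 and mt-Cytb) end in a single T of one, which the polyA tail completes in the RNA. The last 30 bases of these 3 are shown beside mt-Nd1, with the bases of the stop codon that the genome holds in capitals, since the libraries were selected for polyA.
mt-Co3, last bases: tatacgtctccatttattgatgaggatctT
mt-Nd4, last bases: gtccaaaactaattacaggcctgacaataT
mt-Cytb, last bases: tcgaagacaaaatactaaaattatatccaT
mt-Nd1, last bases: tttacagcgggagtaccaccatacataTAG

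The mitochondrially encoded genes held a large share of the summed FPKM of every library. All members together made up 21.4 ± 1.19% of the summed FPKM in dTgDox (SD, n = 3), 22.4 ± 1.52% in dTg (SD, n = 6) and 22.1 ± 1.58% in Ct (SD, n = 6). The mRNAs alone held 21.4, 19.7 and 19.1% in the 3 dTgDox libraries. They held 18.7 to 23.2% in dTg (median 21.6%) and 18.5 to 23.0% in Ct (median 21.4%). These shares take mt-Co1 as listed, which was at 0 in dTgDox replicate 3 and dTg replicate 2 (described below). With mt-Co1 left out of both the mRNAs and the sum, the mRNAs held 17.7 to 19.3% in dTgDox, 18.7 to 20.99% in dTg and 16.6 to 20.8% in Ct, so the groups overlapped and 1 dTgDox library, replicate 2, lay below all 6 dTg libraries. The cerebellum-marked dTg library held 17.1% with mt-Co1 and 15.2% without it, below all 15 libraries on both measures. The rRNAs held far less, 1.37, 1.21 and 1.38% in dTgDox, against 0.844 to 1.15% in dTg and 0.768 to 1.08% in Ct. All 3 dTgDox libraries were above all 12 others. No background was computed for shares, but 22.2% of single genes did not overlap between dTgDox and dTg, and 23.4% between dTgDox and Ct. The libraries were selected for polyA and the rRNAs carry only short A tails. These values are of rRNA that passed the selection, so amounts of rRNA and mRNA in the tissue cannot be compared from them. These shares are of FPKM, which counts per length of gene. A weighting by gene length approaches a share of reads. The length was that of all annotated exons of a gene merged, which may differ from the length behind the FPKM. So weighted, the mRNAs held 4.23 ± 0.649% in dTgDox (SD, n = 3), 4.39 ± 0.587% in dTg and 4.37 ± 0.446% in Ct (SD, n = 6 each). Without mt-Co1 the order of these means changed, to 3.45 ± 0.211% in dTgDox, 3.40 ± 0.165% in dTg and 3.24 ± 0.362% in Ct, and the libraries of the 3 groups overlapped.

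**Figure D1:**
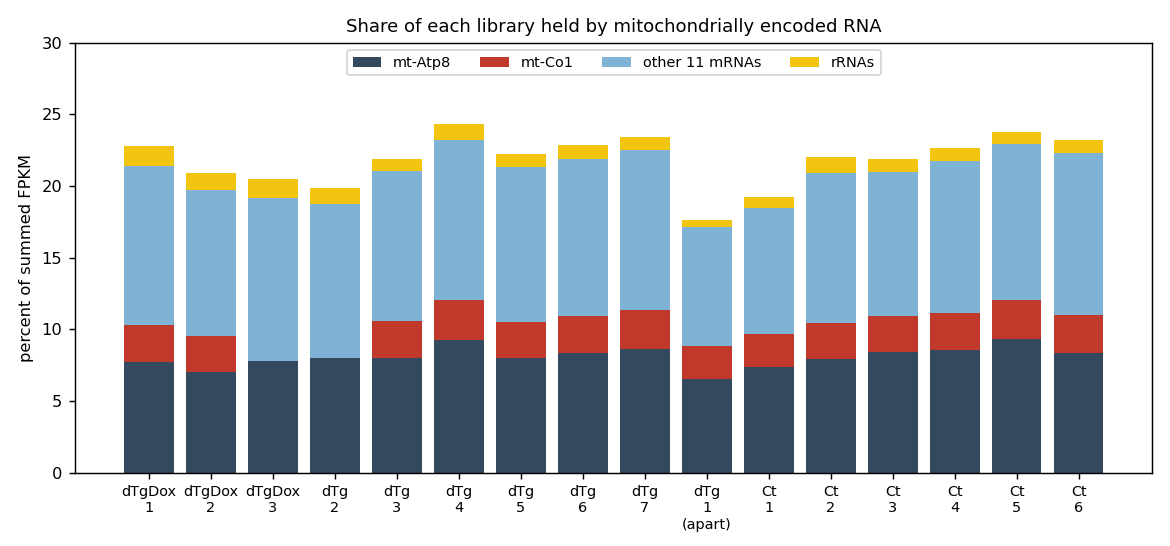
Percent of the summed FPKM of each library (bars, 1 per library) held by mt-Atp8, mt-Co1, the other 11 mRNAs and the 2 rRNAs, with dTgDox on the left, dTg in the middle and Ct on the right. mt-Atp8 alone held 7.04 to 9.35% in the 15 libraries, the red mt-Co1 segment is missing in dTgDox replicate 3 and dTg replicate 2, and the rRNA segment was 1.21 to 1.38% in dTgDox.

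The most abundant of the members, and of all genes, was mt-Atp8, a small subunit of ATP synthase, with a median of 54396 FPKM over the 15 libraries (46279.6 to 64495). It was above every other member in every library and above mt-Co1 wherever mt-Co1 had a value. mt-Atp8 is short, at 204 bases (chrM:7766-7969), and its last 43 bases are also the first of mt-Atp6, which encodes another subunit of the same enzyme. Its sequence is shown for that reason, with the shared bases in capitals. The FPKM of a gene this short depends on how its length was set, which the sources used here do not give.
mt-Atp8: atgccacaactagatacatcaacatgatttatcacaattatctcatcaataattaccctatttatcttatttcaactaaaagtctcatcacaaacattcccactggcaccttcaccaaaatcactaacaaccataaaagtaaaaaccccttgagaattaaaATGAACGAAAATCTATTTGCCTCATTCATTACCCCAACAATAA

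Next came mt-Co1, the catalytic subunit of complex IV, with a median of 17405 FPKM over the 13 libraries in which it was above 0. mt-Atp6 followed at 10097 FPKM. Behind it lay 4 genes whose order changed from library to library: mt-Cytb, the mitochondrially encoded subunit of complex III, at 8841 FPKM, mt-Co3 and mt-Co2 of complex IV at 8613 and 8529 FPKM, and mt-Nd1 of complex I at 8409 FPKM. Of these, mt-Co3 was above mt-Co2 in 7 of 15 libraries and mt-Co2 above mt-Nd1 in 7 of 15, so those neighbours, as listed, did not differ beyond their spread. The remaining subunits of complex I had medians of 6564 FPKM (mt-Nd2), 6229 FPKM (mt-Nd4), 5367 FPKM (mt-Nd6), 5098 FPKM (mt-Nd4l), 3161 FPKM (mt-Nd5) and 2333 FPKM (mt-Nd3). The rRNAs stood among these, mt-Rnr1 at 3531 FPKM and mt-Rnr2 at 2904 FPKM. This order is of values as listed, and it changed when the nuclear copies described below were added to their members. The medians were then 18464 FPKM for mt-Co2, 17260 FPKM for mt-Co3 and 4703 FPKM for mt-Nd3. Neither mt-Nd1 nor mt-Cytb had such a copy. All 15 genes were among the 22 genes with the highest median FPKM of the whole table, and the other 7 places were held by nuclear copies of 7 of the mRNA genes, described below. The spread over the 15 libraries, as a coefficient of variation, was 17.9 and 22.9% for the rRNAs and 6.44 to 13.3% for the mRNAs. Values of 0 of mt-Co1 were left out. This spread pools the 3 groups, so it takes in the differences between groups given below as well as the spread within groups.

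**Figure D2:**
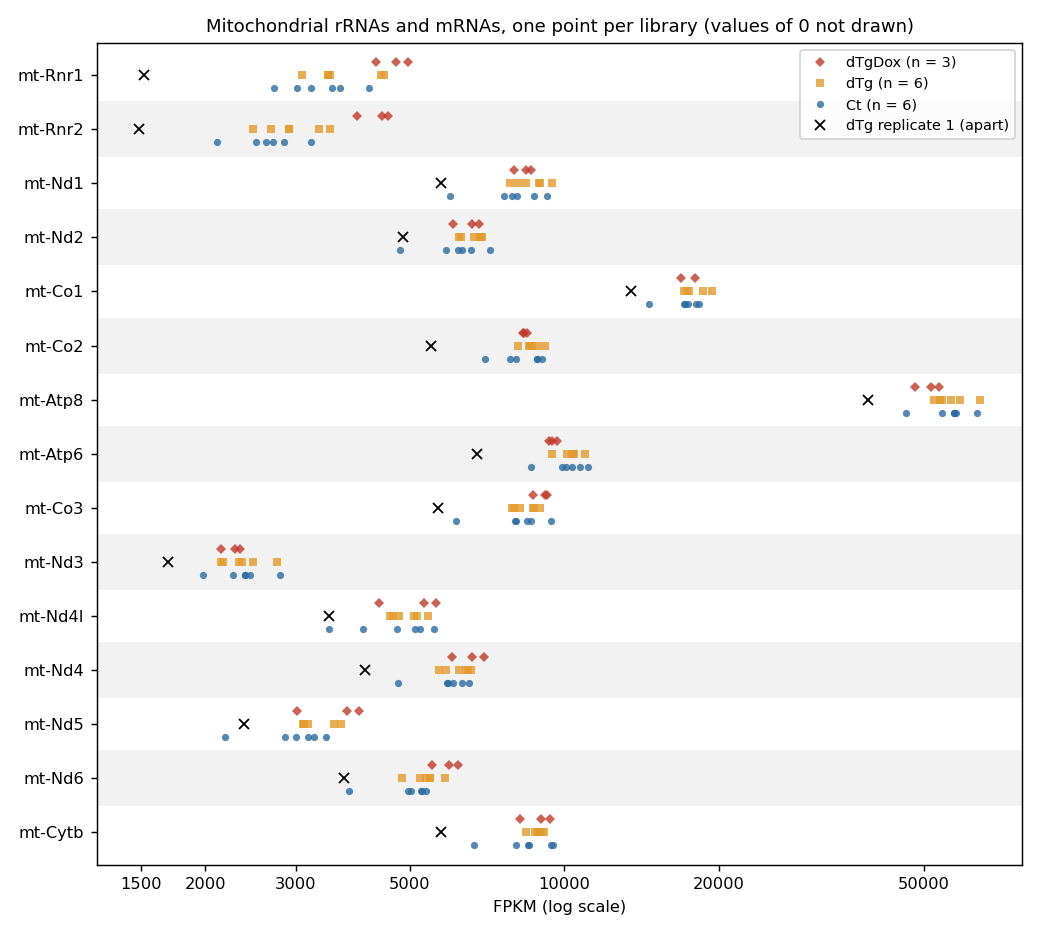
FPKM (log scale) of the 15 members that passed the filter, in the order of the genome, with 1 point per library and the groups dTgDox, dTg and Ct from top to bottom within each gene. The black cross is dTg replicate 1, and 2 values of 0 of mt-Co1 are not drawn. The dTgDox points of mt-Rnr2 (3939 to 4544 FPKM) lie to the right of all others, while those of mRNAs such as mt-Nd1 (7964 to 8588 FPKM) lie among the points of the other groups.

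mt-Co1 was listed at 0 in dTg replicate 2 and in dTgDox replicate 3, and at 14603 to 19371 FPKM in the other 13 of the 15 libraries. Of the 881 genes with a median above 100 FPKM over 16 libraries, only mt-Co1 and the small RNA gene Gm23134 were listed at 0 in any library. In the same 2 libraries its neighbours were at ordinary levels, such as 8839.5 FPKM (dTg replicate 2) and 8342 FPKM (dTgDox replicate 3) for mt-Co2, and so was Gm29216, a nuclear gene that matches the last 483 bases of mt-Co1 with 1 mismatch, at 13964 and 13245 FPKM. Those values of 0 are therefore given as listed, and mt-Co1 was fitted with them as missing, which was chosen after they were seen. With them kept, the fitted differences were -2.55 (dTgDox against dTg), -5.00 (dTgDox against Ct) and -2.45 (dTg against Ct) on the log2 scale, with standard errors (SE) of 2.99 to 3.66 and no adjusted p below 0.38. With them missing they were -0.04 (SE 0.08), 0.03 (SE 0.08) and 0.07 (SE 0.06).

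The tRNA genes, which are 59 to 75 bases long, gave almost no signal. Of the 22, 20 were listed at 0 in all 15 libraries. The methionine tRNA mt-Tm had 70.8 FPKM in dTgDox replicate 3 and 61.0 FPKM in Ct replicate 4, and the proline tRNA mt-Tp had 88.0 FPKM in Ct replicate 6, so 3 of 330 values were above 0. Genes of that size gave little signal in general. Of 1305 single-exon genes shorter than 80 bases in the annotation, 16, or 1.23%, were above 0 in any library. The 1305 include the 22 tRNA genes, and the 16 include mt-Tm and mt-Tp. The sequences of mt-Tm (chrM:3845-3913, plus strand) and mt-Tp (chrM:15356-15422, minus strand) show how short these members are.
mt-Tm: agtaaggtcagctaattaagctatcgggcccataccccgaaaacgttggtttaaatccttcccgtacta
mt-Tp: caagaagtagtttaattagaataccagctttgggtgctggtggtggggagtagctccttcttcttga

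In dTgDox against dTg, mt-Rnr2 was the member that rose. It had 4544, 3939 and 4409.7 FPKM in the dTgDox libraries, against a lowest of 2474.5, a median of 2908 and a highest of 3489 FPKM in dTg, and the groups did not overlap. The fitted log2 difference was 0.54 (SE 0.12, adjusted p = 0.0058), or 1.46-fold, from limma on log2(FPKM + 0.5) over 19064 genes. mt-Rnr1 had 4968, 4301 and 4690.0 FPKM in dTgDox, against a lowest of 3084, a median of 3479.7 and a highest of 4458 FPKM in dTg. Those groups overlapped, since dTgDox replicate 2 lay below dTg replicates 2 and 4, and the log2 difference of 0.33 (SE 0.13) did not pass (limma adjusted p = 0.095). Of all genes tested in this comparison, 18.9% passed in either direction, so 1 of 15 members tested is no higher a share than the background. Likewise 22.2% of genes did not overlap between dTgDox and dTg, and mt-Rnr2 was the only member among them. For both rRNAs, a change in level and a change in the part captured by polyA selection cannot be told apart.

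In dTgDox against Ct both rRNAs rose. The levels of mt-Rnr2 in Ct were 2111 FPKM at the lowest, 2662 at the median and 3211 at the highest, all below the 3 dTgDox values, and the log2 difference was 0.70 (SE 0.12, limma adjusted p = 0.00099), or 1.62-fold. Those of mt-Rnr1 in Ct were 2717, 3373 and 4171 FPKM in the same order, also all below dTgDox, with a log2 difference of 0.47 (SE 0.13, limma adjusted p = 0.021), or 1.39-fold. Among all genes 19.7% passed in this comparison and 23.4% did not overlap, against 2 of 15 and 3 of 15 members. The call on mt-Rnr1 was lost without dTgDox replicate 1 (limma adjusted p = 0.098) and without dTgDox replicate 3 (adjusted p = 0.073). With dTg replicate 1 added to the fit, the limma adjusted p was 0.30 for mt-Rnr1 and 0.051 for mt-Rnr2.

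The third gene whose groups did not overlap was mt-Nd6, a complex I subunit and the only mRNA encoded on the light strand (chrM:13552-14070, minus strand). It had 6206, 5529 and 5959 FPKM in dTgDox, against a lowest of 3809, a median of 5139 and a highest of 5367 FPKM in Ct. Its log2 difference of 0.26 (SE 0.09) missed the threshold (limma adjusted p = 0.062), and passed it without Ct replicate 1 (0.19, adjusted p = 0.041). Against dTg, whose highest library had 5848 FPKM, the difference was 0.14 (SE 0.09, adjusted p = 0.34). In human cells this mRNA lacks a polyA tail. It lies opposite RNA copied from the other strand, its last 14 bases overlap mt-Nd5, and whether reads were counted by strand is not stated in the sources used here, so its reads and those of antisense RNA cannot be told apart.

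**Figure D3:**
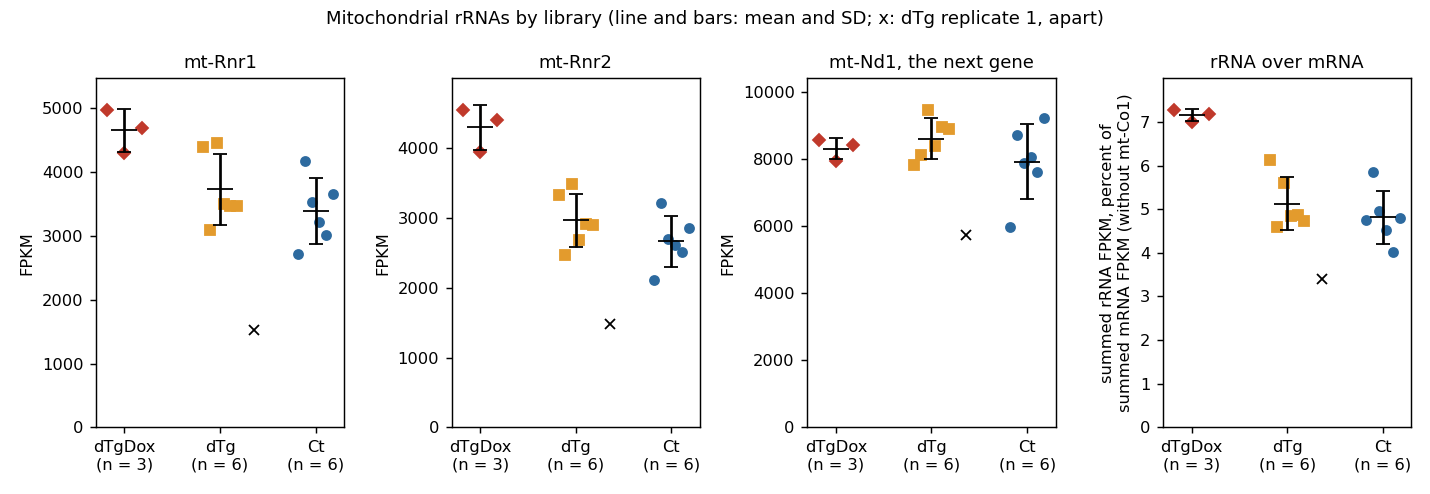
FPKM of mt-Rnr1, mt-Rnr2 and the neighbouring mRNA mt-Nd1, and summed rRNA as a percent of summed mRNA without mt-Co1, by library (points), with the mean and SD of each group (lines) and dTg replicate 1 as a cross. The rRNA to mRNA percentage was 6.998 to 7.27 in dTgDox, 4.58 to 6.12 in dTg and 4.02 to 5.85 in Ct, and mt-Nd1 overlapped in all groups.

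The levels of the rRNAs relative to mRNAs, and to each other, are described by values per library and with no test. Summed rRNA came to 7.27, 6.998 and 7.19% of summed mRNA (without mt-Co1) in the dTgDox libraries, against 4.58 to 6.12% in dTg and 4.02 to 5.85% in Ct. The ratio of mt-Rnr2 to mt-Nd1, the mRNA gene next to it, was 0.529, 0.495 and 0.524 in dTgDox, 0.304 to 0.425 in dTg and 0.308 to 0.368 in Ct. The ratio of mt-Rnr2 to mt-Rnr1 was 0.915, 0.916 and 0.940 in dTgDox, 0.758 to 0.841 in dTg and 0.766 to 0.831 in Ct. None of these 3 ratios overlapped between dTgDox and either other group. All 3 hold mt-Rnr2, which did not overlap by itself, and no background share was computed for ratios. Among single genes, 22.2% did not overlap between dTgDox and dTg, and 23.4% between dTgDox and Ct. The ratio of mt-Rnr1 to mt-Nd1 did overlap with dTg, at 0.540 to 0.578 in dTgDox, 0.379 to 0.560 in dTg and 0.395 to 0.477 in Ct. The cerebellum-marked dTg library had 1521 FPKM of mt-Rnr1 and 1485 FPKM of mt-Rnr2, both lower than in all 15 libraries, and a ratio of mt-Rnr2 to mt-Rnr1 of 0.976, above all of them.

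Several marker sums moved with the rRNA result, and their part in it was not tested. Besides the hippocampus markers above, the 4 oligodendrocyte markers summed to 2429.6 to 3627 FPKM in dTgDox, against 831 to 2312 FPKM in dTg and 919 to 2037 FPKM in Ct, although none of the 4 passed singly in either comparison. Of the 4 astrocyte markers, Gja1 and Aqp4 rose (by 0.32 and 0.43 on the log2 scale against dTg, and by 0.38 and 0.50 against Ct) and Aldh1l1 fell (by 0.51 and 0.47 in the same order). Their sum overlapped between groups, at 282 to 309 FPKM in dTgDox, 248 to 304 FPKM in dTg and 233 to 290.0 FPKM in Ct. Of 3 nuclear-retained RNAs, Neat1 rose by 0.90 against dTg (limma adjusted p = 0.0031) and by 0.93 against Ct (adjusted p = 0.0023), and Malat1 and Meg3 did not pass. The 5 choroid plexus markers summed to 1975 FPKM in dTgDox replicate 3 and to 26.6 and 44.9 FPKM in the other 2 dTgDox libraries, against 1.92 to 127 FPKM in dTg and 3.49 to 93.8 FPKM in Ct, and 1 of the 5, Kl, rose. Without dTgDox replicate 3 the log2 difference of mt-Rnr1 against Ct was 0.46, against 0.47 with it, and no longer passed (limma adjusted p = 0.073). That fit is no test of the part of choroid plexus. None of these markers was at 0 in all libraries.

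None of the 13 mRNAs passed in any comparison. Leaving aside mt-Co1, given above, the 12 log2 differences of dTgDox against dTg ran from -0.15 (mt-Atp8, SE 0.09, limma adjusted p = 0.25) to 0.14 (mt-Nd6), with 6 higher and 6 lower. Against Ct they ran from -0.13 (mt-Atp8) to 0.27 (mt-Nd5, SE 0.12, adjusted p = 0.14), with 9 higher and 3 lower. The 95% intervals of all 12 lay within -0.33 and 0.38 against dTg and within -0.31 and 0.54 against Ct. The median over all 13 mRNAs was -0.03 against dTg and 0.08 against Ct, beside medians over all genes tested of -0.01 in both. Both medians moved with the libraries used. The one against dTg was 0.02 without dTgDox replicate 2 and 0.05 with dTg replicate 1 added, so its sign was not stable. The one against Ct was 0.01 without Ct replicate 1, 0.05 without dTgDox replicate 1 and 0.13 without dTgDox replicate 2 or without Ct replicate 6. By complex, the complex I subunits had differences against Ct of 0.08 (mt-Nd1), 0.09 (mt-Nd2), -0.07 (mt-Nd3), 0.15 (mt-Nd4), 0.13 (mt-Nd4l), 0.27 (mt-Nd5) and 0.26 (mt-Nd6). mt-Cytb of complex III had 0.08, and mt-Co2 and mt-Co3 of complex IV had 0.02 and 0.17. The ATP synthase subunits mt-Atp8 and mt-Atp6 had -0.13 and -0.09. mt-Atp8 had 53497, 48037 and 51697 FPKM in dTgDox, against 52447 to 64495 FPKM in dTg and 46279.6 to 63437 FPKM in Ct, and its dTgDox values overlapped both.

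**Figure D4:**
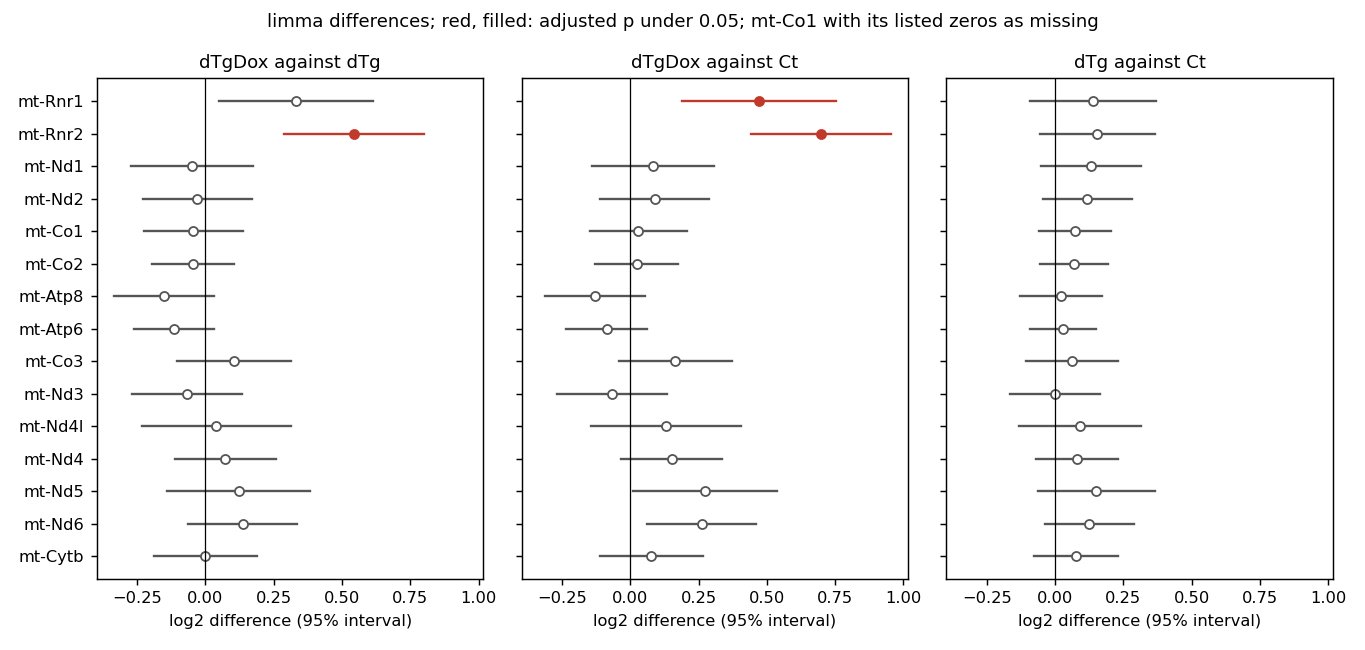
Log2 differences (points) and 95% intervals (lines) of the 15 members in the 3 comparisons from limma, with mt-Co1 fitted with its values of 0 as missing. Red filled points passed an adjusted p of 0.05, which were mt-Rnr2 in dTgDox against dTg, and mt-Rnr1 and mt-Rnr2 in dTgDox against Ct.

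In dTg against Ct no member passed, and no gene of the 19064 did (0%), while 607 genes had an unadjusted p below 0.05. All 12 mRNAs other than mt-Co1 had differences from 0.00039 (mt-Nd3) to 0.15 (mt-Nd5), with 95% intervals within -0.16 and 0.37. mt-Rnr1 differed by 0.14 (SE 0.11) and mt-Rnr2 by 0.15 (SE 0.10). The median over the 13 mRNAs was 0.08, beside -0.0045 over all genes. No member was among the 25 genes, or 0.131%, whose values did not overlap between dTg and Ct. Ct replicate 1 held the lowest value among the 15 libraries for all 15 members (values of 0 of mt-Co1 aside). It had 5982 FPKM of mt-Nd1, for example, against 7621 to 9245 FPKM in the other Ct libraries, and without it the median difference of the mRNAs was 0.01. That library also had the highest summed olfactory bulb markers (196 FPKM, 5 markers), and their part in its low values was not tested. Its total FPKM was the smallest of the 15 (628549). That total is not separate from the low values, because it includes the members. They summed to 121082 FPKM in Ct replicate 1, against a median of 151317 FPKM in Ct.

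The nuclear genome holds copies of mitochondrial DNA that reads of the members can match. In all, 11 annotated nuclear genes matched a member at 95% identity or more over at least 200 bases, and 9 of the 13 mRNA genes had such a match. A block on chromosome 1 (chr1:24611535-24616197, minus strand) holds 7 of them, in the order of the mitochondrial genes from mt-Co1 to mt-Nd4, and 5 of these match without a mismatch. The copies of mt-Co2 (Gm28661), mt-Atp6 (Gm10925), mt-Co3 (Gm28437), mt-Nd3 (Gm28438) and mt-Nd4l (Gm10222) were listed at 0.986 to 1.04 times the FPKM of their member in each of the 15 libraries. mt-Atp6 and Gm10925, for instance, had medians of 10097 and 10154 FPKM. The copies of mt-Nd4 (Gm28439) and mt-Co1 (Gm29216), which match a part of the gene, were at 0.624 to 0.694 and 0.705 to 0.827 times their member. The values of such pairs are uncertain, because over the matched bases reads of one can hardly be told from reads of the other.

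The start of mt-Nd3 and of Gm28438 shows how little tells such a pair apart. They differ by 1 base in 345, T3C, counted from 1 at the first base of mt-Nd3, in capitals below. The mt-Nd3 bases are chrM:9459-9491 and those of Gm28438 are chr1:24613087-24613119, minus strand. With that single difference, Gm28438 had 2389.8 FPKM at the median of 15 libraries and mt-Nd3 had 2333 FPKM.
mt-Nd3, first bases: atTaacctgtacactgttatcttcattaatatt
Gm28438, first bases: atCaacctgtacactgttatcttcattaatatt

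Copies on chromosome 2 were listed at far lower values: Gm13340, which matches mt-Co1 with 37 mismatches, at 0.0547 to 0.0577 times it, Gm13341, which matches mt-Co2 with 16 mismatches, at 0.152 to 0.168 times it, and Gm13339, which matches mt-Nd2 with 17 mismatches, at 0.0805 to 0.0926 times it. Gm4076 on chromosome 13, with 45 mismatches to mt-Nd5, had at most 0.897 FPKM. mt-Nd1, mt-Nd6, mt-Cytb, mt-Atp8 and both rRNAs had no such copy, by the same search. It covered annotated transcripts only, so copies that are not annotated would have been missed. Gm10925 matches mt-Atp6 from its first base, so it also holds the 43 bases that mt-Atp6 shares with mt-Atp8. All copies together held 8.09 ± 0.344% of the summed FPKM in dTgDox (SD, n = 3), 8.18 ± 0.177% in dTg and 7.92 ± 0.526% in Ct (SD, n = 6 each). None of the 11 passed in any comparison (smallest limma adjusted p = 0.11), and the 10 above 1 FPKM had log2 differences of -0.11 to 0.17. With copies added to their members, the 8 members other than mt-Co1 ran from -0.11 to 0.27 and none passed (smallest adjusted p = 0.14).

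**Figure D5:**
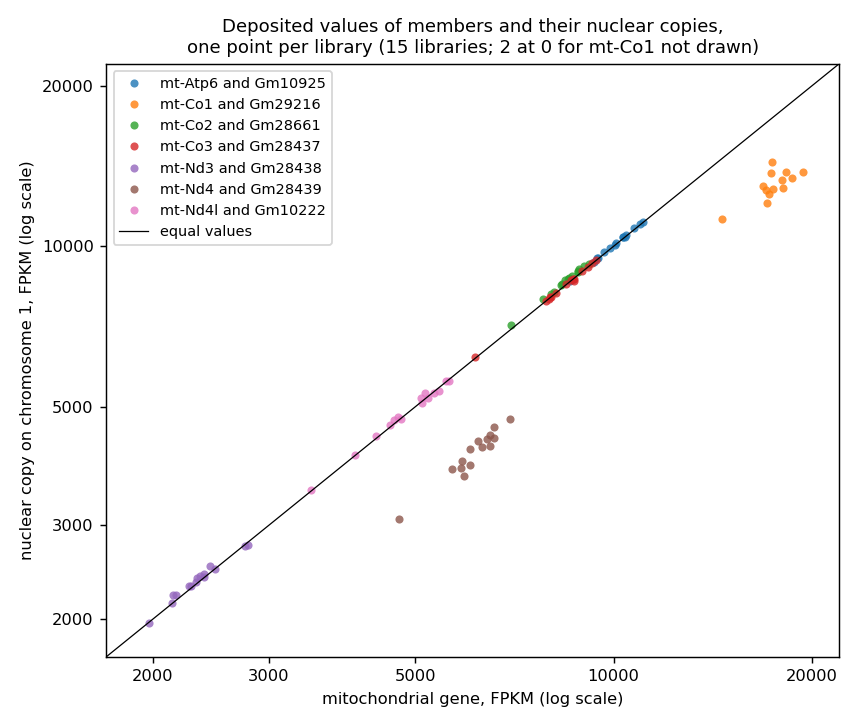
FPKM of the 7 nuclear copies on chromosome 1 (vertical, log scale) against FPKM of their mitochondrial member (horizontal, log scale), 1 point per library over 15 libraries, with the line of equal values. For 5 pairs the points lie on that line (0.986 to 1.04 times), and the pairs of mt-Nd4 and mt-Co1 lie below it.

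Genes of the nucleus that serve the mitochondrial genome are given next. Of 39 genes for mitochondrial transcription and RNA processing, 4 rose and 2 fell in dTgDox against dTg, with a list median of 0.05, and 3 rose and 1 fell against Ct. These shares are below the 18.9 and 19.7% of all genes called in the 2 comparisons. Among them Mrpl12, a ribosomal protein that also binds the mitochondrial RNA polymerase, rose by 0.23 (SE 0.06, limma adjusted p = 0.018) against dTg, and Hsd17b10, a subunit of the RNase that frees one end of mitochondrial tRNAs, rose by 0.24 (adjusted p = 0.028). Mrm1, which in human cells methylates the 16S rRNA, fell by 0.99 (SE 0.30, adjusted p = 0.036). Angel2, which in human cells takes part in mitochondrial RNA processing, fell by 0.24 against dTg (SE 0.07, adjusted p = 0.021) and by 0.29 against Ct (adjusted p = 0.0083), where it ranked first of the list. Hsd17b10 rose against Ct as well (0.24, adjusted p = 0.026). Against Ct, Tefm, the elongation factor of mitochondrial transcription, rose by 0.33 (adjusted p = 0.032) and Slirp, which stabilises mitochondrial mRNAs, by 0.30 (adjusted p = 0.040). Of 17 genes that maintain mitochondrial DNA, 2 rose against dTg and 1 against Ct, again below the share of all genes called. Top1mt, the mitochondrial topoisomerase, rose by 0.61 in both (SE 0.08, adjusted p = 0.00014 against dTg and 0.00012 against Ct), and Mpv17 by 0.27 against dTg (adjusted p = 0.014). Of 12 regulators of mitochondrial biogenesis, Gabpa, a transcription factor for respiratory genes, rose by 0.41, while the nuclear receptor Esrrg fell by 0.52 and the coactivator Ppargc1b fell by 0.47 against dTg (adjusted p = 0.039, 0.0033 and 0.030), and the same 3 passed against Ct in the same directions. That is 3 of 12 in each comparison, the only one of these 3 lists with a share above that of all genes.

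Partners of the mitochondrially encoded proteins in the same complexes were also measured. Against dTg, 12 of 36 nuclear subunits of complex I rose and none fell, with a list median of 0.14, and Ndufb9 rose by 0.35 (SE 0.08, limma adjusted p = 0.0074) and Ndufab1 by 0.30 (SE 0.06, adjusted p = 0.0024). In complex III, 2 of 9 rose, in complex IV 3 of 12, and in ATP synthase 4 of 18, with Atp5j2 at 0.37 (SE 0.08, adjusted p = 0.0034). None fell, and none of the 4 subunits of complex II, which has no mitochondrially encoded part, passed. Against Ct the counts were 12 of 36, 3 of 9, 3 of 12 and 4 of 18 rising, and Cox7c of complex IV fell by 0.64 (SE 0.21, adjusted p = 0.042). The share called among all genes was 18.9% against dTg and 19.7% against Ct. In dTg against Ct none of the genes in these lists passed. The mitochondrially encoded subunits of the same complexes had the differences given above, none past the threshold, and the difference between nuclear and mitochondrial subunits was not tested.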

How the data were processed

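PolyA-selected RNA was sequenced from 1 end in 17 deposited samples, with RNA integrity numbers of 8 to 8.9 and 12 rounds of amplification per the labels' protocols. Per the submitters' processing notes, the tools were TopHat2 and DESeq. The sources used here give neither versions nor the quantifier, genome build or annotation. The deposited values behave as FPKM made by the authors, 1 per Ensembl gene, and no counts were used. From 600 to 4000 bases, low values of single-exon genes went about in inverse proportion to gene length. Shorter genes did not show this evenly, so the unit was inferred from the longer ones. The labelled NTg sample was left out, because its file repeats dTg replicate 1. A depth relative to the deepest library was read from the smallest steps in the values of single-exon genes, and precision was taken from the spread between libraries alone.

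Symbols, coordinates and sequences came from GENCODE M21 (GRCm38), which named 45139 of the 46073 genes. Nuclear copies were searched among the annotated GENCODE M21 transcripts, not the whole genome, with BLAST 2.17.0 (at least 95% identity over at least 200 bases). Differences in log2(FPKM + 0.5) were fitted with limma (version 3.58.1, R 4.3.3). A gene had to reach 0.5 FPKM in 3 or more of the 15 libraries. The fit had 1 mean per group, robust empirical Bayes with a trend and no covariate. Two-sided p-values were adjusted by Benjamini-Hochberg over the 19064 genes that passed, with a threshold of 0.05. The fit was checked on simulated data. The added 0.5 barely touches genes of this level. Class sums and ratios had no test. Every member is named or counted, the named nuclear genes are among the 4 members of each list that ranked first by p, and the members and lists were chosen with earlier results of these data known. The alternatives were other sets of libraries, pseudocounts, filters, scalings and fits. The values of 1 cortical marker gene are not reported here.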

Additional observations from a re-analysis of the deposited data

Results flagged for a closer look

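In groups of 6 libraries, 4 values of the 15 measured members stood further from the rest of their group than Dixon's 95% limit allows, among 30 groups of values looked at (each member in dTg and in Ct). Another 10 groups, of 5 class shares and ratios, held none. Chance alone flags about 1 in 20 such groups. mt-Co1 was listed at 0 in dTg replicate 2, and the nearest dTg library had 17049 FPKM. This is 1 of the 2 zeros described above. The other 3 values were the lowest Ct values, all in Ct replicate 1. That library had 14603 FPKM of mt-Co1 (nearest Ct library 17094 FPKM), 4733 FPKM of mt-Nd4 (nearest 5894 FPKM) and 3809 FPKM of mt-Nd6 (nearest 4952 FPKM). The same library was lowest for all 15 members.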

How the results depend on the processing

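The rise of mt-Rnr2 in dTgDox against dTg passed under all 29 alternatives, with log2 differences of 0.49 to 0.68 and limma adjusted p of 0.0022 to 0.0498. Against Ct it passed in 28 of 29 (0.63 to 0.76, adjusted p of 0.00034 to 0.051), the exception being 16 libraries. mt-Rnr1 against Ct passed in 24 of 29 (0.41 to 0.53, adjusted p of 0.0090 to 0.30). Some of the 29 could hardly change these calls. Zeros of mt-Co1 taken as missing and nuclear copies added left the rRNA values as they were, and other pseudocounts barely touch genes of this level.

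With dTg replicate 1 added (16 libraries), 1537 genes passed in dTgDox against dTg, against 3596, and 1504 genes and 0 members passed in dTgDox against Ct, against 3758 and 2. Leaving out each library in turn gave 2077 to 3715 genes against dTg and 2229 to 3872 genes and 1 to 3 members against Ct, with the lowest counts without dTgDox replicate 1, and 0 to 1 genes in dTg against Ct. Without dTgDox replicate 3 the counts were 2155 and 2273. A pseudocount of 0.1 gave 1 gene in dTg against Ct. Without both libraries with mt-Co1 at 0, chosen after seeing the data, 1981 genes passed against dTg, and 2158 genes and 1 member against Ct. Scaling to the sum of all genes brought mt-Nd6 past the threshold against Ct (0.25, adjusted p = 0.033).

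Equal replicate numbers did not pair the libraries (correlations of deviations of -0.19 to 0.08). With the replicate block, 1562 genes passed against dTg, and 2394 genes and 1 member against Ct, where mt-Rnr1 had an adjusted p of 0.083. The median difference of the mRNAs was then 0.12 against dTg, against -0.03 without the block, and 0.18 against Ct, against 0.08. It was -0.01 in dTg against Ct with 16 libraries, against 0.08.

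The mRNA share depended on its definition. It was 24.1% in dTgDox, 25.6% in dTg and 25.2% in Ct of the FPKM of protein-coding genes, and 4.23, 4.39 and 4.37% in the same order when weighted by gene length (3.45, 3.40 and 3.24% without mt-Co1). Without mt-Co1 it was 18.7, 19.7 and 19.2%, and with nuclear copies added 28.2, 29.6 and 29.2%. Sequencing depth is unknown, so counting error is not included.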
